A study of Mus musculus with 11 samples.

Results

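The Hox genes are the 39 homeobox genes of the HoxA, HoxB, HoxC and HoxD clusters, and all 39 were found by symbol among the 24062 genes counted in each library. HoxA supplied 11 of them, HoxB 10, HoxC 9 and HoxD 9. The RNA came from cultured mesenchymal cells of mouse lungs at embryonic day (E) 15, and Sp3 is a transcription factor that binds GC boxes. The 11 libraries were 4 *Sp3*+/+ (WT), 4 heterozygous *Sp3*+/- and 3 homozygous mutant *Sp3*-/- libraries, without any further treatment named in the labels. The cells had been selected by quick attachment to culture plastic and then passaged, so the values describe adherent cells in culture and not lung tissue. They are primary cells, by the study's account. Nothing in the labels says whether libraries came from separate embryos or pools, and p-values therefore measure only the spread between these libraries, which may be technical.

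Hox proteins are transcription factors that give cells a position along the body axis. Each cluster is a row of genes numbered by paralog group, and genes with low numbers are generally active further toward the head than those with high numbers. Cells keep much of this code in culture, which makes it a record of where they came from. *Hoxa5* is known for its role in lung mesenchyme, together with its paralogs *Hoxb5* and *Hoxc5*.

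The libraries held 9849111 to 59297495 reads on genes, of which 2423 to 22753 fell on Hox genes. *Sp3* was listed at 60.7 to 107 CPM (reads scaled to a common library size) in WT, at 51.8 to 71.6 in *Sp3*+/- and at 14.4 to 18.9 in *Sp3*-/- libraries, which do not overlap with the others. Library titles end in a suffix that no source used here explains. All 3 *Sp3*-/- libraries (685-1, 697-2 and 697-5) have none, and so do WT library 468-4 and *Sp3*+/- library 697-4. WT libraries 685-2, 697-1 and 697-3 have suffix 3, as have *Sp3*+/- libraries 685-5 and 685-7, whereas *Sp3*+/- library 468-3 has suffix 2. The file of 697-4 carries suffix 2 in its name, and the title was used. WT library 468-4 stood apart from the other WT libraries in HoxA and HoxD, as given below, and the suffix and the genotype were nearly confounded.

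Some sums of cell type markers differed between genotypes, and those of macrophage and mesenchyme markers also differed with the suffix. The 7 macrophage markers found in the files summed to 547 to 824 CPM in the WT libraries with suffix 3, to 2970 in 468-4, to 2840 in 697-4 and to 2850, 10600 and 9750 in the *Sp3*-/- libraries 685-1, 697-2 and 697-5. The 8 mesenchyme markers were all present, and their sum was 7070 to 19000 CPM in *Sp3*-/- against 13100 to 22000 in WT and 14900 to 22300 in *Sp3*+/- libraries. *Col1a1* and *Col1a2*, the main fibrillar collagen genes, had at least 1540 and 2260 CPM in every library. The 7 epithelium markers summed to 46.6 to 152 CPM in *Sp3*-/- against 15 to 34.2 in WT and 21.7 to 32.7 in *Sp3*+/- libraries. Most of the sum in 685-1, 697-2 and 697-5 was *Krt18* (104, 57.8 and 36.5 CPM) and *Krt8* (40.3, 18.4 and 3.4). In 468-4 and 697-4 the sums were 29.3 and 23 CPM, within the range of the libraries with a suffix. The red blood cell markers *Hba-a1* and *Hbb-bs* were at 0 in all 11 libraries, but *Alas2*, the heme synthesis enzyme of red cell precursors, had 1.99 to 16 CPM. These values leave out reads that the counting assigned to no gene. In cultures such as these, fewer cells of a type and less RNA per cell cannot be told apart.

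HoxB and HoxA supplied most Hox transcripts in WT cells. Levels of different genes were compared as CPM per kilobase (kb) of exon, with exon lengths from GENCODE vM39. The summed level of HoxB was 76.4±25.3 CPM per kb (s.d., n = 4), that of HoxA 52.5±15.1, that of HoxC 4.4±1.54 and that of HoxD 2.34±2.55. *Hoxa5* ranked first of all Hox genes, at 31.0±8.73 CPM per kb. It was followed by *Hoxb4* (13.1±3.25), *Hoxb9* (10.8±4.62), *Hoxb3* (10.3±3.13) and *Hoxb5* (10.2±6.1). The ranges of these 4 overlapped, from 6.02 to 19.3 CPM per kb, and their order is not resolved by 4 libraries. *Hoxa5* was first in each of the 4 WT and 4 *Sp3*+/- libraries. Along HoxA, the level fell to near 0 beyond *Hoxa7*, and along HoxB it stayed high up to *Hoxb9*, the last gene before *Hoxb13*. HoxC was expressed at *Hoxc4*, *Hoxc5*, *Hoxc6* and, apart from these, at *Hoxc13*, with *Hoxc8* at 0.197 CPM per kb. The plot of levels by paralog number shows this arrangement.

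**Figure D1:**
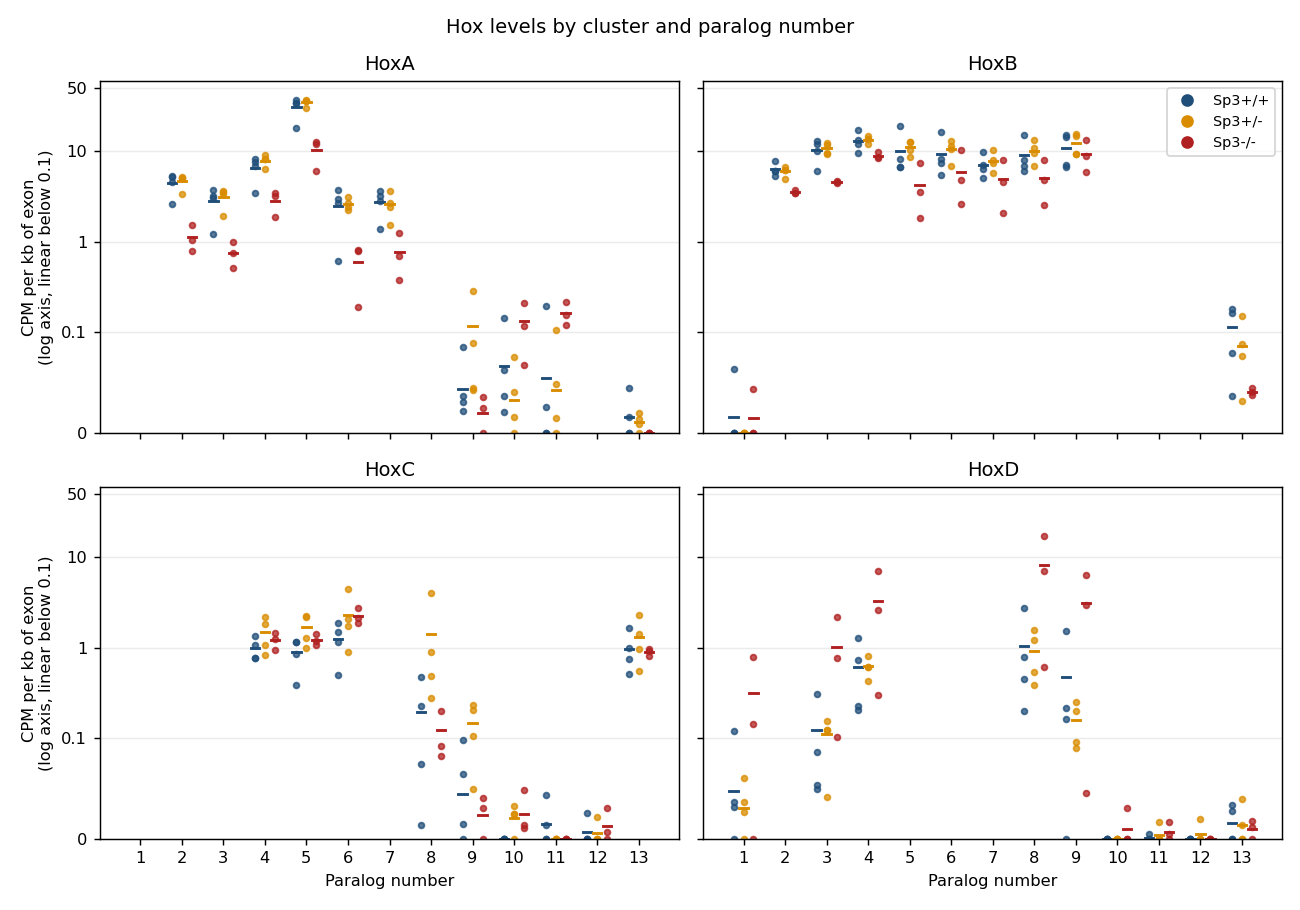
CPM per kb of exon (log axis, linear below 0.1) of 38 Hox genes against its paralog number, with 1 panel per cluster, 1 point per library and a bar at the mean of each genotype. The mean bars of *Hoxa2* to *Hoxa7* are lower in *Sp3*-/- than in the other genotypes, and *Sp3*-/- points of HoxD spread from the WT level to far above it.

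Of the 39 genes, 24 had at least 1 read in every library, 18 were above 1 CPM in every library, and each had a read in some library. A gene was tested if it passed 1 CPM in at least 1 library of the fit. In *Sp3*-/- against WT, 25 genes were tested and 14 were not. The latter were *Hoxa9*, *Hoxa10*, *Hoxa11*, *Hoxa13*, *Hoxb1*, *Hoxb13*, *Hoxc9*, *Hoxc10*, *Hoxc11*, *Hoxc12*, *Hoxd10*, *Hoxd11*, *Hoxd12* and *Hoxd13*. *Hoxa9* entered the fits of all 11 libraries through 1.61 CPM in *Sp3*+/- library 685-7, and the other 13 had at most 29 reads in any library. *Hoxd1* was tested only through 1.49 CPM in *Sp3*-/- library 685-1, with at most 0.271 CPM elsewhere. By paralog class, 7 of the 8 anterior genes (groups 1 to 3) and all 15 central genes (groups 4 to 8) were tested, but only 3 of the 16 posterior genes (groups 9 to 13), *Hoxb9*, *Hoxc13* and *Hoxd9*.

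The promoters of *Hoxa5*, *Hoxa6* and *Hoxd8* are shown because these genes are the most abundant HoxA member, its neighbour, and the HoxD member with the highest level in *Sp3*-/- cells, and because Sp3 binds GC boxes. The sequences are the 250 bases before the RefSeq start in GRCm38.p6, 5′ to 3′ on the strand of the gene. Capitals mark the GC box core GGGCGG on either strand, where matches may overlap.
*Hoxa5*, chr6:52204588-52204837, minus strand: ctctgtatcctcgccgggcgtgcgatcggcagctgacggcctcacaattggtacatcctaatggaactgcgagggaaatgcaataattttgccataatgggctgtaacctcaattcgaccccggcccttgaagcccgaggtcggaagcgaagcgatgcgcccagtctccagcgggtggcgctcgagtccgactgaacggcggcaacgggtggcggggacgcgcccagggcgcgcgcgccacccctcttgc
*Hoxa6*, chr6:52208673-52208922, minus strand: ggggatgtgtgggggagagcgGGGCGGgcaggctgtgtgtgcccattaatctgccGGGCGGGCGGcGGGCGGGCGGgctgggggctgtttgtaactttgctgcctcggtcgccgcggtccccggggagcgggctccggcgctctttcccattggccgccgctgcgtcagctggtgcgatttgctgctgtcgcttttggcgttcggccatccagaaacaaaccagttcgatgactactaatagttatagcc
*Hoxd8*, chr2:74704365-74704614, plus strand: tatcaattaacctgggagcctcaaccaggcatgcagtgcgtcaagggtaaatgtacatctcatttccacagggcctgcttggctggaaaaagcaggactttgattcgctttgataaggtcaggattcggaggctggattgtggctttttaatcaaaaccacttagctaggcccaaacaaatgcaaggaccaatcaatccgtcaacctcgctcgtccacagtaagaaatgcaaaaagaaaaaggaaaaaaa

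The GC box core was matched 5 times before *Hoxa6* and 0 times before *Hoxa5* and *Hoxd8*. The promoter table used here holds 24 starts for 22 of the 39 Hox genes, and the core was present in 10 of them (41.7%) against 32.7% of 32851 starts in all. Of the HoxA and HoxD genes described below, *Hoxa2*, *Hoxa3*, *Hoxa7*, *Hoxd3* and *Hoxd4* had 0 matches, *Hoxd1* had 2 and *Hoxd9* had 1. A match is a match of letters only, and its absence says only that these letters are not in this window.

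The first comparison asks how the Hox genes differed between *Sp3*-/- and WT cells. HoxA and part of HoxB were lower in the cells without Sp3. Of the 25 genes tested, 6 were lower at an adjusted p below 0.05, and 0 were higher. They were *Hoxa2*, *Hoxa3*, *Hoxa5*, *Hoxa7*, *Hoxb2* and *Hoxb3*. Of all 14025 genes tested, 9.77% were lower and 8.76% higher by the same test. The median log2 fold change of the 25 genes was -0.55, against 0 over all genes. By class, 4 anterior and 2 central genes were lower.

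All 7 tested HoxA genes had a negative log2 fold change, with a median of -1.89. *Hoxa5*, which lies on chromosome 6 from 52201754 to 52204587 (GRCm38.p6), was listed at 33.9, 64.8, 63.8 and 70.1 CPM in WT libraries 468-4, 685-2, 697-1 and 697-3, at 67.7, 67.7, 69.6 and 56.2 in *Sp3*+/- libraries 468-3, 685-5, 685-7 and 697-4, and at 11.4, 23.6 and 22.7 in *Sp3*-/- libraries 685-1, 697-2 and 697-5. The *Sp3*-/- libraries were below all others, and 468-4 lay between them and the other WT libraries. *Hoxa5* was 3.03-fold lower in *Sp3*-/- than in WT cells (log2 fold change -1.60, SE 0.35, adjusted p = 0.0253, edgeR).

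*Hoxa2*, a patterning gene of the hindbrain and second pharyngeal arch, was listed at 6.74, 13.9, 13.3 and 11.7 CPM in WT libraries in the same order. Its values were 13.3, 13, 13 and 8.77 in *Sp3*+/- and 2.02, 3.97 and 2.70 in *Sp3*-/- libraries. No *Sp3*-/- value reached the lowest value of the other genotypes, and the 2 libraries without a suffix were the lowest of their genotype. The gene was 3.91-fold lower than in WT (log2 fold change -1.97, SE 0.35, adjusted p = 0.0153, edgeR).

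*Hoxa3*, needed for thymus and parathyroid development, had 8.45, 22.1, 25.5 and 21.1 CPM in WT, 23.4, 24.7, 25.1 and 13.2 in *Sp3*+/- and 3.53, 6.84 and 5.21 in *Sp3*-/- libraries. Here too the groups did not overlap, and 468-4 was nearer to the *Sp3*-/- libraries than to the other WT libraries. The log2 fold change was -1.89 (SE 0.42, adjusted p = 0.0266, edgeR). *Hoxa7* had 4.04, 10.4, 9.26 and 8.12 CPM in WT, 7.79, 7.02, 10.6 and 4.46 in *Sp3*+/- and 1.09, 2.01 and 3.60 in *Sp3*-/- libraries, and 697-5 came closest to 468-4. Its log2 fold change was -1.89 (SE 0.50, adjusted p = 0.0398, edgeR).

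*Hoxa4* and *Hoxa6*, the neighbours of *Hoxa5*, had log2 fold changes against WT of -1.22 (SE 0.37, adjusted p = 0.0564, edgeR) and -2.12 (SE 0.75, adjusted p = 0.0836, edgeR), which missed the threshold. *Hoxa4* had 5.50, 10.9, 12.3 and 13.2 CPM in WT, 13, 14.4, 13 and 10.1 in *Sp3*+/- and 2.97, 5.51 and 5.11 in *Sp3*-/- libraries. *Hoxa6* had 0.533, 2.32, 2.63 and 3.29 CPM in WT, 2.34, 1.95, 2.77 and 2.13 in *Sp3*+/- and 0.168, 0.700 and 0.701 in *Sp3*-/- libraries. For both genes the only overlap with WT was through 468-4.

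All 8 tested HoxB genes also had a negative log2 fold change, with a median of -0.75, and the 2 that passed the test were those with the lowest paralog numbers. *Hoxb2* had 18.7, 21.4, 21.4 and 27.1 CPM in WT, 17.3, 21.9, 23.3 and 21.8 in *Sp3*+/- and 12.2, 12.0 and 13.2 in *Sp3*-/- libraries. The 3 *Sp3*-/- values were close together and below all others. *Hoxb2* was 1.79-fold lower (log2 fold change -0.84, SE 0.15, adjusted p = 0.0156, edgeR). *Hoxb3* had 30.9, 51.5, 62.5 and 66.7 CPM in WT, 49.7, 60.2, 63.8 and 48.3 in *Sp3*+/- and 23.5, 24.4 and 23.1 in *Sp3*-/- libraries. It was 2.24-fold lower, without overlap (log2 fold change -1.16, SE 0.25, adjusted p = 0.0258, edgeR).

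**Figure D2:**
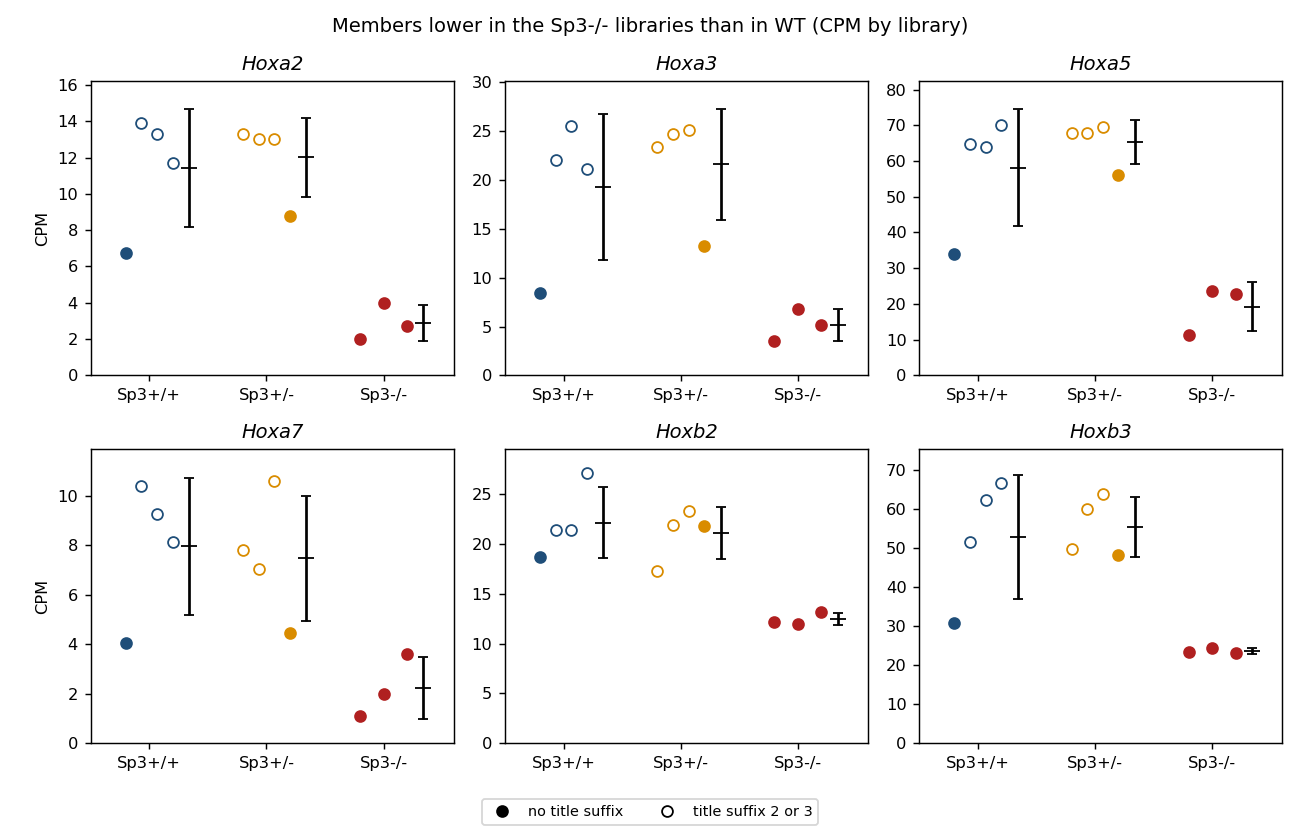
CPM in each library of the 6 Hox genes that were lower in *Sp3*-/- than in WT, by genotype (filled points, libraries without a title suffix), with the mean and s.d. in black beside each group. The 3 *Sp3*-/- points lie below every WT point in each panel, and the filled WT point, library 468-4, is the lowest of its group.

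*Hoxb4* had 24.8, 34.3, 30.9 and 44.7 CPM in WT, 37.5, 35.3, 34.8 and 30.8 in *Sp3*+/- and 21.7, 22.2 and 25.2 in *Sp3*-/- libraries (log2 fold change against WT -0.55, SE 0.20, adjusted p = 0.0883, edgeR). Beyond *Hoxb4* the libraries without Sp3 parted from each other. *Hoxb5*, the HoxB paralog of *Hoxa5*, had 18.5, 18.7, 22.8 and 53.8 CPM in WT, 24.0, 29.0, 35.1 and 35.0 in *Sp3*+/- and 5.16, 10.0 and 20.7 in *Sp3*-/- libraries (log2 fold change -1.27, SE 0.58, adjusted p = 0.152, edgeR). *Hoxb9* had 38.7, 18.0, 19.0 and 41.4 CPM in WT, 25.3, 25.6, 41.8 and 40.2 in *Sp3*+/- and 16.1, 24.3 and 35.8 in *Sp3*-/- libraries (log2 fold change -0.21, SE 0.40, adjusted p = 0.729, edgeR). Library 697-5 was inside the WT range for *Hoxb5* and *Hoxb9*, and 685-1 was below it for both. *Hoxb6*, *Hoxb7* and *Hoxb8* had the same order of *Sp3*-/- libraries, lowest in 685-1 and highest in 697-5.

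HoxC had 5 tested genes, of which 0 passed the test, with a median log2 fold change of 0.30. *Hoxc5* had 2.67, 3.55, 1.21 and 3.59 CPM in WT, 3.97, 3.11, 6.81 and 7.04 in *Sp3*+/- and 3.67, 3.29 and 4.41 in *Sp3*-/- libraries (log2 fold change against WT 0.45, SE 0.38, adjusted p = 0.417, edgeR). The groups overlapped. Of the 3 Hox5 paralogs, only *Hoxa5* passed the test, and differences in fold change between the paralogs were not tested.

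HoxD was high in 2 of the 3 *Sp3*-/- libraries and not in the other one. *Hoxd8*, on chromosome 2 from 74704615 to 74707933 (GRCm38.p6), had 50.4 and 20.6 CPM in 685-1 and 697-2 and 1.80 in 697-5. In WT libraries 468-4, 685-2, 697-1 and 697-3 it had 8.23, 2.32, 1.33 and 0.593 CPM, and in *Sp3*+/- libraries 468-3, 685-5, 685-7 and 697-4 1.13, 3.64, 4.65 and 1.59. In 685-1 *Hoxd8* ranked first of all Hox genes per kb, at 17.1 CPM per kb.

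*Hoxd3* had 15.2, 5.28 and 0.701 CPM in *Sp3*-/- libraries in the same order, 2.11, 0.342, 0.364 and 0.593 in WT and 0.283, 0.854, 1.05 and 0.843 in *Sp3*+/- libraries. *Hoxd9* had 13.9, 6.52 and 0.1 CPM in *Sp3*-/-, 3.34, 0.478, 0.364 and 0 in WT and 0.212, 0.444, 0.559 and 0.198 in *Sp3*+/- libraries. *Hoxd1*, near the other end of the cluster, had 1.49, 0.271 and 0 CPM in *Sp3*-/-, 0.225, 0.0683, 0 and 0.0593 in WT and 0, 0.0683, 0.112 and 0.0496 in *Sp3*+/- libraries. *Hoxd4* had 20.8, 7.76 and 0.901 CPM in *Sp3*-/-, 0.607 to 3.82 in WT and 1.29 to 2.44 in *Sp3*+/- libraries. In all 5 genes 685-1 was highest, 697-2 followed, 468-4 was the highest WT library and 697-5 lay within the WT range.

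The 5 log2 fold changes against WT were 2.43 to 2.99, but 0 passed the test. The lowest adjusted p among them was 0.0677 (edgeR), for *Hoxd3* (log2 fold change 2.99, SE 0.97). Those of *Hoxd1*, *Hoxd8* and *Hoxd9* were 2.68 (SE 1.15, adjusted p = 0.135, edgeR), 2.93 (SE 1.11, adjusted p = 0.0985, edgeR) and 2.66 (SE 1.42, adjusted p = 0.213, edgeR). Some alternatives called HoxD genes higher. *Hoxd3* passed in 5 of 20 settings, among them the fits without 468-4, without 697-5, with all 11 libraries and with DESeq2, and *Hoxd4*, *Hoxd8* and *Hoxd9* in 2 each. *Hoxd10* to *Hoxd13*, beyond *Hoxd9*, had at most 3 reads in any library. HoxD lies 1.688 to 1.783 Mb from *Sp3* on the same chromosome, so alleles linked to the *Sp3* mutation cannot be told apart from the mutation.

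**Figure D3:**
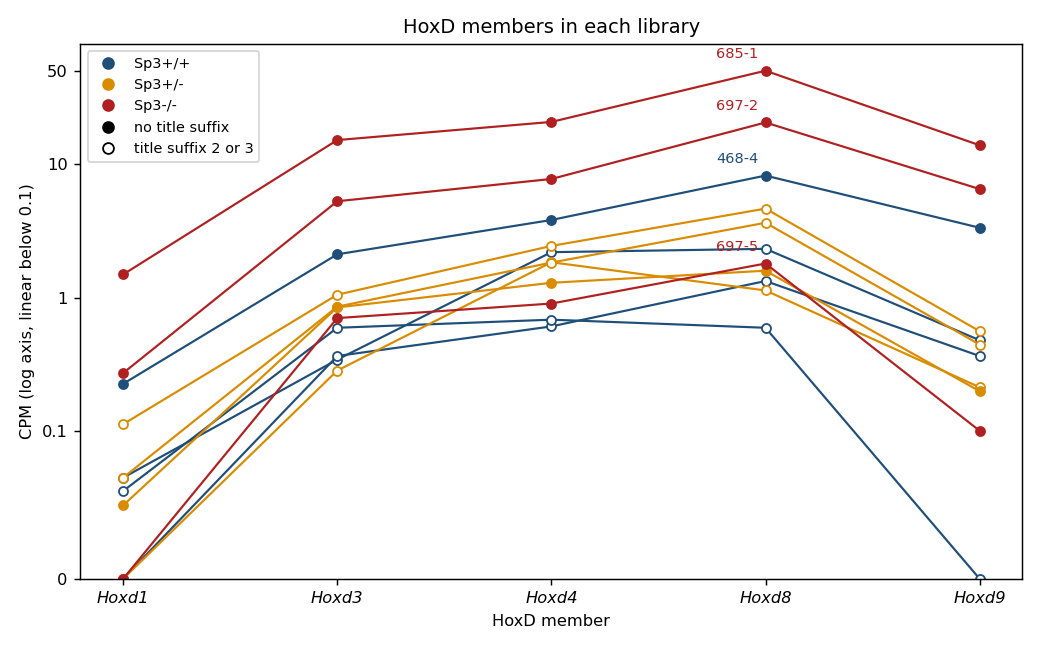
CPM (log axis, linear below 0.1) of the 5 tested HoxD genes in each of the 11 libraries, 1 line per library, coloured by genotype and filled where the title has no suffix. Libraries 685-1 and 697-2 run above all others with 468-4 next, and 697-5 runs among the WT and *Sp3*+/- libraries.

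Within the *Sp3*-/- libraries, the HoxD levels had the same order as the sums of mesothelial and cardiac markers. The sums of mesenchyme, epithelium, red blood cell and neural crest markers also had this order, so it singles out no list. Those of macrophage, endothelium, skeletal muscle and cartilage markers did not. Single markers could depart from their list, as did mesothelial *Wt1*, with 122, 83.1 and 88.4 CPM in 685-1, 697-2 and 697-5. *Msln*, a mesothelial marker, had 2050, 1050 and 325 CPM in 685-1, 697-2 and 697-5, against 81.9 to 309 in WT and 223 to 660 in *Sp3*+/- libraries. *Tnnt2*, cardiac troponin T, had 120, 43.5 and 6.11 CPM in the same libraries, against 6.56 to 9.86 in WT and 4.11 to 19.3 in *Sp3*+/-. The 5 mesothelium markers summed to 4170, 2160 and 1170 CPM and the 6 cardiac markers to 144, 56.7 and 10.1, against 526 to 1120 and 8.51 to 12.8 in WT. In *Sp3*+/- libraries these sums were 1040 to 1880 and 5.81 to 29. Library 685-5 had the highest of these, with HoxD at 6.86 CPM, against 40.5 in 697-2. In WT, 468-4 had sums of 1120 and 12.4 with HoxD at 17.8 CPM, and 685-2 had 1040 and 12.8 with HoxD at 5.47. *Nkx2-5*, a cardiac transcription factor, was at 0 in 697-5 and at most 0.36 CPM in any library. The 5 neural crest and Schwann markers summed to 85.7 CPM in 468-4, to 36.2, 21.2 and 9.51 in the *Sp3*-/- libraries and to at most 16.7 in the rest. The part of any of these cell types in the HoxD levels was not tested.

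As shares of all Hox CPM in a library, HoxD made up 42.6%, 18% and 1.49% in the 3 *Sp3*-/- libraries, against 6.4% in 468-4 and 0.405% to 1.87% in the other WT and *Sp3*+/- libraries. HoxA made up 11.1%, 20.8% and 18.7% in *Sp3*-/-, 23.5% in 468-4 and 27.4% to 39.2% in the others. The share of HoxA was thus lower in each *Sp3*-/- library than in any library with Sp3. The share of HoxB ranged from 39.7% to 72.6% in *Sp3*-/- libraries and that of HoxC from 5.88% to 7.14%.

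**Figure D4:**
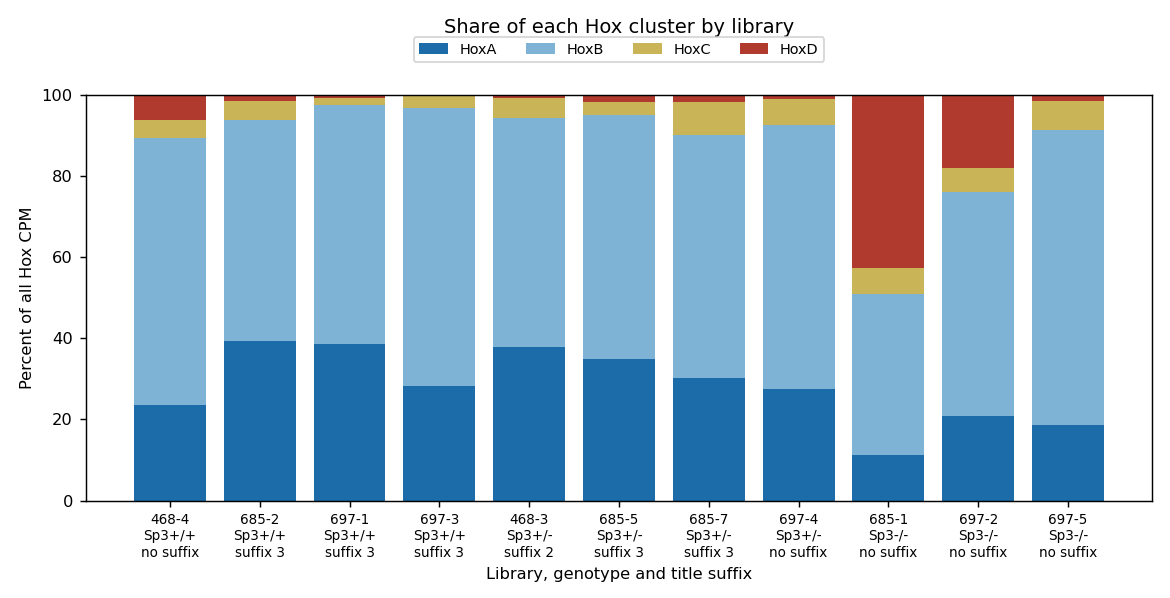
Percent of all Hox CPM in each of the 11 libraries that came from HoxA, HoxB, HoxC and HoxD, with the genotype and title suffix under each bar. HoxD takes 42.6% in 685-1 and 18% in 697-2 but 1.49% in 697-5, and HoxA takes at most 20.8% in an *Sp3*-/- library.

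The lower HoxA and HoxB calls depended on the suffix. With the title suffix as a covariate over all 11 libraries, 2 Hox genes were lower and 0 higher, against 5.8% and 3.6% of 14130 genes. These were *Hoxa2* (log2 fold change -1.36, SE 0.27, adjusted p = 0.0229, edgeR) and *Hoxb2* (-0.70, SE 0.15, adjusted p = 0.0271, edgeR). All 8 tested HoxA and all 8 HoxB genes kept a negative sign there, with medians of -0.98 and -0.62, and the 5 HoxD genes a positive sign. *Hoxa5* had a log2 fold change of -1.10 (adjusted p = 0.0608, edgeR), *Hoxa3* of -0.92 (adjusted p = 0.0691) and *Hoxb3* of -0.63 (adjusted p = 0.0543). With 697-4 given the suffix of its file name, 0 Hox genes and 1.15% of all genes were called (edgeR). A fit of 468-4 alone against the 3 *Sp3*-/- libraries called 0 of all 13752 genes and says nothing about the Hox genes. Both 468-4 and 697-4 had higher CPM than all 3 *Sp3*-/- libraries in 4 of 6 HoxA genes compared (*Hoxa2*, *Hoxa3*, *Hoxa5* and *Hoxa7*), in 3 of 8 HoxB genes (*Hoxb2*, *Hoxb3* and *Hoxb9*), in 1 of 5 HoxC genes (*Hoxc13*) and in 0 of 5 HoxD genes. Both were lower in 1 gene, *Hoxc6*. Over all genes tested, 21.4% were higher in both and 20.3% lower. The macrophage marker sums given above moved with the suffix in the same libraries, and their part in the result was not tested.

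Single libraries also moved the count of 6. It rose to 12 without 468-4, of which 9 were lower and 3 higher (*Hoxd3*, *Hoxd8* and *Hoxd9*), while 15.1% and 14.8% of all genes were called in the same fit. It was 5 without 697-5 (4 lower, and *Hoxd3* higher), 3 without 685-1, 1 without 697-2 and 2 without 685-2, 697-1 or 697-3. The shares of all genes called also fell, from 18.5% to 10.1% without 697-5, 16% without 685-1 and 2.01% without 697-2. They were 6.39%, 5.48% and 5.74% without 685-2, 697-1 and 697-3. *Hoxa2* passed the test in all 7 of these fits and *Hoxb2* in 6, whereas *Hoxa5* passed in 3, *Hoxa7* in 2, and *Hoxa3* and *Hoxb3* in 1 each.

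**Figure D5:**
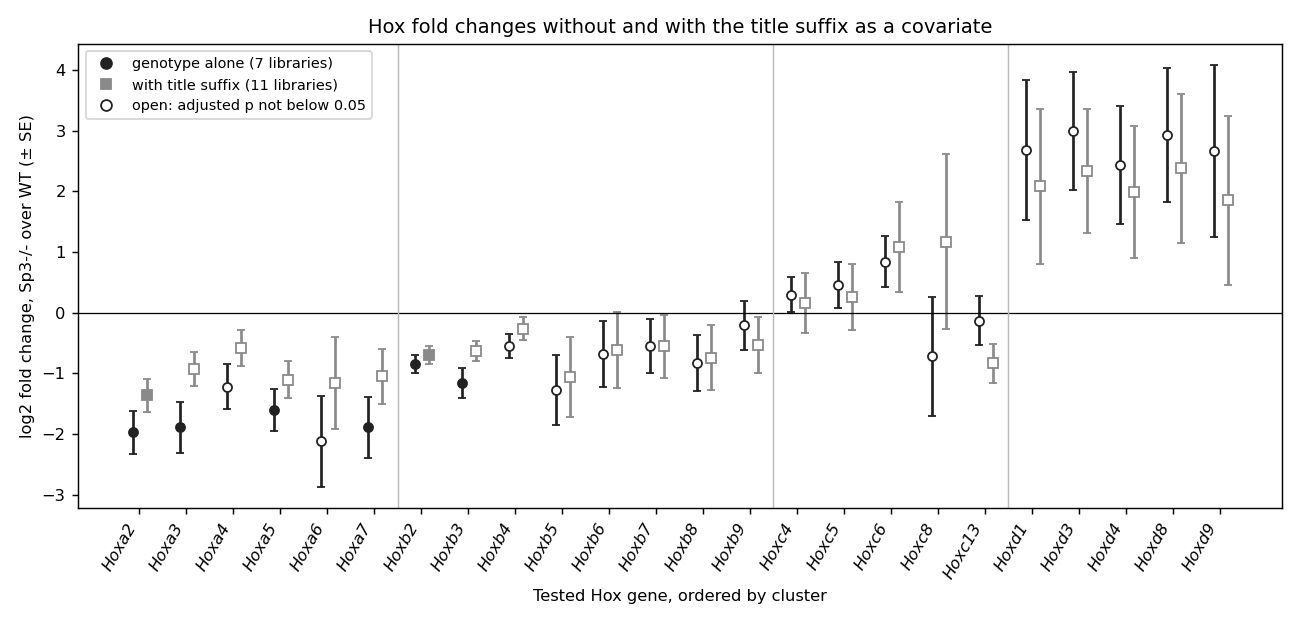
Log2 fold change with SE of 24 tested Hox genes in *Sp3*-/- against WT, from genotype alone in 7 libraries (circles) and with the title suffix as a covariate in 11 libraries (squares), filled where the adjusted p was below 0.05. HoxA and HoxB lie below 0 and HoxD above 0 in both fits, and the 2 filled squares are *Hoxa2* and *Hoxb2*.

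The second comparison asks whether loss of 1 copy of *Sp3* changed the Hox genes. Of 26 genes tested, 0 passed the test (edgeR), as did 0% of all 14130 genes tested, of which 246 had an unadjusted p below 0.05, and DESeq2 also called 0. *Sp3* itself was not called in this fit (log2 fold change -0.49, SE 0.16, unadjusted p = 0.0131, edgeR). The 0 calls therefore do not show that the Hox genes were unchanged. The HoxA genes had a median log2 fold change of 0.16, HoxB 0.12, HoxC 0.87 and HoxD -0.18. Of the 26, 2 had an unadjusted p below 0.05, *Hoxc8* (log2 fold change 2.96, SE 0.98, adjusted p = 1, edgeR) and *Hoxc5* (0.92, SE 0.36, adjusted p = 1, edgeR). *Hoxc8* had 2.69, 1.49, 12.2 and 0.843 CPM in *Sp3*+/- libraries 468-3, 685-5, 685-7 and 697-4, 0.225, 1.43, 0.0404 and 0.682 in WT and 0.280, 0.248 and 0.601 in *Sp3*-/- libraries. Library 685-7 was the highest of the 11 for *Hoxc8*, and also for *Hoxc6* at 11.3 CPM and *Hoxa9* at 1.61 CPM.

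The third comparison set *Sp3*-/- against *Sp3*+/- cells, with the same *Sp3*-/- libraries as the first. Of 26 genes tested, 10 were lower and 4 higher, against 12.5% and 13% of all 14130 genes tested. The lower genes were *Hoxa2* to *Hoxa7*, *Hoxb2*, *Hoxb3*, *Hoxb4* and *Hoxc8*, and the higher ones *Hoxd1*, *Hoxd3*, *Hoxd8* and *Hoxd9*. Of these, *Hoxd1* entered the test only through *Sp3*-/- library 685-1. The median log2 fold change was -0.73, against 0 over all genes.

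In HoxA, the log2 fold change of *Hoxa5* was -1.77 (SE 0.29, adjusted p = 0.00427, edgeR), and those of *Hoxa2*, *Hoxa3* and *Hoxa7* were -2.05 (adjusted p = 0.0029), -2.06 (adjusted p = 0.0071) and -1.81 (adjusted p = 0.0201). *Hoxa4* (-1.49, adjusted p = 0.00994) and *Hoxa6* (-2.20, adjusted p = 0.0293) passed here as well. In HoxB, *Hoxb2* had -0.76 (adjusted p = 0.00599), *Hoxb3* -1.23 (adjusted p = 0.00597) and *Hoxb4* -0.59 (adjusted p = 0.0322). *Hoxb5* and *Hoxb9* missed the threshold, at -1.39 (adjusted p = 0.0621) and -0.39 (adjusted p = 0.461), as did *Hoxc5* at -0.47 (adjusted p = 0.399). For *Hoxc8* the log2 fold change was -3.70 (SE 1.18, adjusted p = 0.0427, edgeR), and it was -2.29 and no longer past the threshold without 685-7.

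In HoxD, *Hoxd3* had a log2 fold change of 3.18 (SE 0.86, adjusted p = 0.0247, edgeR), *Hoxd8* of 3.10 (SE 1.00, adjusted p = 0.0453) and *Hoxd9* of 4.17 (SE 1.32, adjusted p = 0.0423). That of *Hoxd1* was 3.15 (SE 1.04, adjusted p = 0.0485). *Hoxd1* passed the filter only through 685-1, where it was highest, so its call adds no support. Library 697-5 lay within the *Sp3*+/- range for *Hoxd3* and *Hoxd8*. For *Hoxd1* it was at 0 CPM, the lowest *Sp3*+/- value. For *Hoxd9* it was below all *Sp3*+/- libraries, at 0.1 CPM against 0.198 to 0.559. Without 685-1 the log2 fold changes of *Hoxd3* and *Hoxd8* were 1.98 and 2.00, and *Hoxd1* could not be tested. All 4 HoxD calls were lost without 685-1, 697-2, 468-3, 685-5 or 685-7, and some of them without 697-4, 685-2, 697-1 or 697-3. *Hoxa2*, *Hoxa3*, *Hoxa4*, *Hoxa5*, *Hoxb2* and *Hoxb3* passed whichever of the 11 libraries was left out. *Hoxa7* was lost without 685-7 or 697-2, and *Hoxa6* and *Hoxb4* without 468-3, 685-1, 685-5, 685-7 or 697-2, and *Hoxa6* also without 697-5. The call of *Hoxc8* was lost without 468-3, 685-1, 685-5, 685-7, 697-2, 697-3 or 697-5. With the suffix covariate 6 Hox genes were called, all lower, against 3.57% of all genes lower and 1.83% higher. With 697-4 given the suffix of its file name, 0 of all 14130 genes were called. In that fit the log2 fold change of *Hoxd8* was -0.04 and that of *Hoxa6* 0.14. Leaving out single libraries gave 17 calls without 697-5, 15 without WT 468-4, 6 without 697-2 or 685-7, 7 without 685-1 or 685-5, and 8 without 468-3. Of all genes, 25.5% were called as reported, 17.2% without 697-5, 30.1% without 468-4 and 10.6% without 697-2. The share was 13.4% without 685-7, 24.6% without 685-1, 14.6% without 685-5 and 16.4% without 468-3.

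The genes that work with Hox proteins or set their expression were read from lists, in *Sp3*-/- against WT unless stated, where 9.77% of all genes were lower and 8.76% higher. Against *Sp3*+/-, 12.5% of all genes were lower and 13% higher. Of the 9 TALE homeodomain cofactors, which bind DNA together with Hox proteins, all were tested and 1 was lower, *Pknox1* (log2 fold change -0.38, adjusted p = 0.0313, edgeR), with a median of -0.38 over the list. The call of *Pknox1* was lost with the suffix covariate (adjusted p = 0.0676). Against *Sp3*+/-, *Meis1* was lower as well (-0.91, adjusted p = 0.0407). Of 26 Polycomb subunits, which keep Hox genes silent, 1 was lower, *Cbx2* (-1.23, adjusted p = 0.0219), with a median of -0.10. Against *Sp3*+/- 5 were lower, *Cbx2* (-1.08), *Phf19* (-1.50), *Cbx8* (-0.42), *Aebp2* (-0.31) and *Pcgf3* (-0.27). Of 10 Trithorax genes and H3K27 demethylases, which counter Polycomb, *Kdm6b* was lower (-0.98, adjusted p = 0.0150) and *Wdr5* higher (0.46, adjusted p = 0.0195). With the suffix covariate *Cbx2*, *Kdm6b* and *Wdr5* still passed (adjusted p = 0.0488, 0.0329 and 0.0287). Against *Sp3*+/- the same genes passed (*Kdm6b* -0.86, *Wdr5* 0.42) and *Rbbp5* was higher (0.43).

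Retinoic acid is a known inducer of anterior Hox genes. Of 15 genes of retinoic acid signalling and the Cdx family, 10 were tested, 3 were lower and 1 was higher, with a median of -0.08. The receptors *Rara* and *Rarg* had log2 fold changes of -0.81 (adjusted p = 0.0255) and -1.02 (adjusted p = 0.0150, edgeR). The binding proteins went in opposite directions, *Crabp1* by -3.96 (adjusted p = 0.0215) and *Crabp2* by 2.42 (adjusted p = 0.00776). *Crabp2* had 42.2, 54.8 and 76.4 CPM in *Sp3*-/-, 6.82 to 14.1 in WT and 8.58 to 14.4 in *Sp3*+/- libraries, without overlap. Against *Sp3*+/- these 4 genes also passed (*Rara* -0.80, *Rarg* -0.97, *Crabp1* -3.72, *Crabp2* 2.37), and the retinoic acid degrading enzyme gene *Cyp26b1* was lower (-1.02) and the synthesising *Aldh1a3* higher (2.67). With the suffix covariate against WT, *Crabp2* (2.30, adjusted p = 0.0124) and *Rarg* (-0.62, adjusted p = 0.0293) were still past the threshold and *Crabp1* and *Rara* were not (adjusted p = 0.0773 and 0.0623).

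Of 24 other regional transcription factors, 20 were tested, 6 were lower and 1 was higher, with a median of -1.07. The lower ones were *Prrx1* (log2 fold change -2.89, adjusted p = 0.0193, edgeR), a limb and lateral plate mesoderm gene, *Barx1* (-3.55, adjusted p = 0.0221), a gene of stomach mesenchyme, *Nr2f1* (-1.90, adjusted p = 0.0221), *Nr2f2* (-0.89, adjusted p = 0.0425), and the lung mesenchyme regulators *Tbx5* (-1.17, adjusted p = 0.0380) and *Foxf1* (-1.61, adjusted p = 0.0497). *Gata4*, known for heart and mesothelium, was higher (1.78, adjusted p = 0.0327). Against *Sp3*+/- 7 were lower, *Prrx1* (-2.63), *Nr2f1* (-1.76), *Foxf1* (-1.61), *Tbx2* (-1.36), *Tbx5* (-1.20), *Nr2f2* (-1.06) and *Tbx4* (-1.01), and *Gata4* was higher (1.37). With the suffix covariate against WT, *Barx1* was still past the threshold (adjusted p = 0.0497) and the other 6 were not.

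Of 18 noncoding RNAs and Evx genes of the Hox clusters, 12 were found by symbol and 0 reached 1 CPM in any library. *Hoxd3os1*, an antisense RNA in HoxD, had 0.56 and 0.29 CPM in 685-1 and 697-2 and at most 0.09 in the others. Its exons overlap 15% of those of *Hoxd8* on the opposite strand. The setting for strand in the counting is not given in the sources used here, so reads of the 2 genes cannot be told apart in the overlap. *Hoxd3* and *Hoxd4* share 5.7% and 13.1% of their exon bases on the same strand, and *Hoxc5* shares 5.4% with *Hoxc10*, so counts in these stretches are uncertain. *Hoxa5*, *Hoxa2*, *Hoxb2* and *Hoxb3* share none with another counted gene in this annotation.

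Of the marker lists, 3 of 8 mesenchyme genes were lower in *Sp3*-/- than in WT cells (*Foxf1*, *Pdgfrb* and *Vim*) with a median log2 fold change of -0.87, and 3 of 7 macrophage genes were higher (*C1qa*, *C1qb* and *Lyz2*) with a median of 2.4. Over all genes tested, 9.77% were lower and 8.76% higher. Of 7 epithelial genes 3 were higher (*Epcam*, *Cdh1* and *Krt18*), of 5 mesothelial genes 2 (*Msln* and *Wt1*), of 4 tested cardiac genes 2 (*Tnnt2* and *Actn2*) and of 5 erythroid genes the only tested member, *Alas2*. The other epithelial genes were not called, with log2 fold changes of 2.59 for *Krt8*, -1.85 for *Nkx2-1*, -4.72 for *Sftpc* and -1.09 for *Cldn3*. *Sftpc* had 4.51 CPM in WT library 685-2 and at most 0.142 elsewhere. Among endothelial, skeletal muscle, cartilage and neural crest markers, 5, 1, 3 and 4 genes were tested and 0 passed. With the suffix covariate the 3 macrophage calls were lost (*C1qa* adjusted p = 0.0750, *C1qb* 0.0908 and *Lyz2* 0.151, edgeR), as were those of *Foxf1*, *Epcam*, *Krt18*, *Msln*, *Tnnt2* and *Alas2*, whereas *Pdgfrb*, *Vim*, *Cdh1*, *Wt1* and *Actn2* still passed.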

How the data were processed

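The authors aligned the reads to mm10 with STAR 2.4.5a after FastQC 0.10.1 and used htseq-count for reads per gene, and the deposited files hold these whole-number counts for 24062 gene symbols in 11 libraries. Annotation version and strand setting are not given in the sources used here. Reads that the counting assigned to no gene, for whatever reason (38.4% to 40.9% of a library), were left out.

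Genotypes were taken from the labels. The filter kept genes above 1 CPM in at least 1 library of the comparison, and edgeR 4.0.16 in R 4.3.3 (TMM, estimateDisp, robust glmQLFit, glmQLFTest) gave every adjusted p in the text, by Benjamini-Hochberg over all genes tested, with a threshold of 0.05. *Sp3*-/- against WT used 7 libraries and the other comparisons all 11, and comparisons share libraries. SEs follow from the test statistic. CPM use TMM factors of all 11 libraries. Values by library are given for Hox genes called in some comparison, the 5 most abundant per kb in WT and the Hox5 paralogs, and the other lists by counts and called genes. The members and lists were chosen with earlier results of these data known. No pair of libraries of a genotype agreed within counting noise (lowest chi-square per degree of freedom 15.8). Alternatives were DESeq2 1.42.0, limma-voom (limma 3.58.1) without and with a consensus correlation, other normalizations, filters, covariates, library sets and gene lengths, and a block on the first label number. The fit was tested on simulated data. The values of 1 Hox gene, which enters the counts, are not reported here. Gene positions are on GRCm38.p6, from RefSeq, as are the promoters.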

Additional observations from a re-analysis of the deposited data

Results flagged for a closer look

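In each group of 4 libraries, the highest and lowest log2 CPM of 25 tested Hox genes were compared with the nearest other library, as the share of the group's range taken by that gap. Of 50 gene and group pairs, 4 had a library far from the others, and chance alone flags about 1 in 20 such groups. In *Sp3*+/-, library 697-4 was the lowest for *Hoxa2* (3.14 log2 CPM, next 3.71, gap 0.941 of the range), for *Hoxa3* (3.73, next 4.56, gap 0.892) and for *Hoxa5* (5.81, next 6.08, gap 0.867). In WT, library 468-4 was the lowest for *Hoxa5* (5.09 log2 CPM, next 6.0, gap 0.869). Libraries 468-4 and 697-4 are those outside *Sp3*-/- whose titles have no suffix.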

How the results depend on the processing

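The number of called Hox genes in *Sp3*-/- against WT, 6 as reported, was 10 with DESeq2 (8 lower, 2 higher), 10 with all 11 libraries in 1 fit (9 lower, 1 higher), 2 with the title suffix as a covariate, 0 with that covariate and 697-4 given suffix 2, 0 among libraries without a suffix, and 1 to 12 with single libraries left out. Over all genes 18.5% were called as reported, 30.6% with DESeq2, 28.1% with all 11 libraries, 9.41% with the covariate, 1.15% with 697-4 given suffix 2, 0% among libraries without a suffix, where 1 WT library leaves little power, and 2.01% to 29.9% with single libraries left out. *Hoxa2* was called in 18 and *Hoxb2* in 17 of 20 settings. Against *Sp3*+/- the count, 14 as reported, was 6 with the suffix covariate, 0 with 697-4 given suffix 2, and 6 to 17 with single libraries left out, against 25.5%, 5.4%, 0% and 10.6% to 30.1% of all genes. *Sp3*+/- against WT gave 0 in every setting run. The cause of these shifts was not tested.

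With the first label number as a replicate block, 14 Hox genes were called in *Sp3*-/- against WT, 10 lower and 4 higher, against 28.7% of all genes. Whether the number pairs the libraries cannot be told from correlations, because pairs also differ in title suffix. Deviations from the genotype mean correlated at -0.62 to 0.34 (median 0.1) over 14 pairs with a shared number, and at -0.52 to 0.71 (median -0.045) over 26 other pairs.

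Some genes changed sign against WT. *Hoxc8* had a log2 fold change of 1.17 with the suffix covariate and 0.52 with 697-4 given suffix 2, and *Hoxc13* had 0.26 with the block. With single libraries left out, *Hoxb9* ranged from -0.55 to 0.03 and *Hoxc13* from -0.34 to 0.26. Against *Sp3*+/-, with 697-4 given suffix 2, *Hoxa6* (-2.20 as reported) had 0.14 and *Hoxd8* (3.10 as reported) had -0.04. With coding length in place of exon length, the WT level was 129 CPM per kb for HoxA, 262 for HoxB, 15.2 for HoxC and 7.85 for HoxD, by construction higher, in the same order. Posterior genes with few reads were not tested.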
